A study of Mus musculus with 6 samples.

Results

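The enzymes of the citric acid cycle were followed in mouse inguinal fat through 9 genes: Cs, Idh2, Idh3a, Idh3b, Ogdh, Suclg1, Fh1, Mdh2 and Pcx. The members were all non-control probes on the array whose printed gene name equals one of these symbols, which gave 12 probes of 55681 probes with 34844 gene names. Of the genes, 7 had 1 probe, Fh1 had a pair, and Ogdh had 3. Gene expression was measured on 1-colour Agilent arrays, with 3 arrays of the group titled DIO_CR_WR and 3 of the group titled DIO, all from male C57BL/6J mice of no stated genetic modification. From 2 months of age the DIO_CR_WR mice had free access to high-fat food (60% of energy from fat) for 1 month, then restricted calories for about 3 weeks until their weight equalled that of mice kept on chow, and then high-fat food again during weight regain. The DIO mice were fed regular diet (6% fat) up to that time and then the same high-fat food over the same closing period, so both groups were eating it when the fat was taken. The labels' protocol names the regain mice DIO and the other mice CTR, and samples were grouped by title. The labelled ages are 9, 10 and 11 months for DIO_CR_WR and 6, 7 and 8 months for DIO. They rise by 1 month per sample and may not be true ages. They do not overlap between groups, so age and group cannot be told apart. A fit with labelled age as a covariate rests on the order of the replicates within each group. The labels do not say whether a sample is 1 mouse, so the p-values below measure the spread between samples, which may be technical.

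The citric acid cycle runs in the mitochondrial matrix, where it oxidizes the acetyl group of acetyl-CoA to carbon dioxide and hands the electrons to the respiratory chain. In white fat cells it also supplies citrate, which leaves the mitochondrion and is split in the cytosol to give acetyl-CoA for fatty acid synthesis. Pyruvate carboxylase refills the cycle with oxaloacetate, and in fat cells it also feeds the making of glycerol phosphate for triglyceride.

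The probes that measured the enzymes with several probes on the array are shown by their last 30 bases, since these sets allow the same transcript to be read at more than 1 place. The Pcx probe is added because it shares a letter string with 1 of them. The bases come from the array files and are written on the transcript's strand, with positions on build mm9 and AATAAA, the common polyadenylation signal, in capitals.
Ogdh A_55_P2006281 (chr11:6256541-6256570, plus strand): acacctgatttatttattttggttaaaaaa
Ogdh A_55_P2006280 (chr11:6256613-6256642, plus strand): cggcttgacccataaactaagttatcatgg
Ogdh A_55_P2006277 (chr11:6258940-6258969, plus strand): aagatggcttagcactgactgctcttccaa
Fh1 A_51_P359333 (minus strand, within chr1:177531659-177534089): aagcagcaaagattgccaagactgcgcaca
Fh1 A_55_P2074718 (chr1:177531530-177531559, minus strand): agtgacttcAATAAAtttatattaaaataa
Pcx A_55_P2008599 (chr19:4621640-4621669, plus strand): aaatttgctcAATAAAagtggccttccctt
The second Ogdh probe starts 72 bases after the first and the remaining one starts 2399 bases after the first. The 60 bases of Fh1 A_51_P359333 span 2431 bases of genome, so they are not contiguous there. The string AATAAA was in 2 of the 12 probes and in 10.1% of all non-control probes on the array.

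Promoter windows are shown for Cs, Pcx and Idh3b, the genes with the most negative log2 fold changes among the 11 probes that had all 6 arrays. The sequences are RefSeq's on build GRCm38.p6, from 120 bases before the gene's start to 10 bases after it, written on the gene's strand. Capitals mark 3 short motifs, read on either strand. The letters CCAAT are those that NF-Y binds, GGGCGG those of the Sp1 family, and CCGGAAG those of the ETS family.
Cs (chr10:128337607-128337736, plus strand): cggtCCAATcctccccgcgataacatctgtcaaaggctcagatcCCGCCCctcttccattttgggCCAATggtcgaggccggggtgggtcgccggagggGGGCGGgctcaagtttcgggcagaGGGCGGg
Pcx (chr19:4510352-4510481, plus strand): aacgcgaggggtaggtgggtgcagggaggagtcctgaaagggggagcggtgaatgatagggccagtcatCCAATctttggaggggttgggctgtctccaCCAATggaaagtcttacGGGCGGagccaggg
Idh3b (chr2:130284442-130284571, minus strand): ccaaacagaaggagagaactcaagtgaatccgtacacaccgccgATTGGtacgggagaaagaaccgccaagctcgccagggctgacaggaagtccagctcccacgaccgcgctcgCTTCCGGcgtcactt
In the full 300-base windows, 250 bases before the start and 50 after it, both strands were searched for 8 of the 9 genes and for 27025 genes in all; Idh3a was not matched. CCAAT was in 6 of the 8 windows, those of Cs, Idh2, Idh3b, Ogdh, Fh1 and Pcx, and in 37.9% of all windows. GGGCGG was also in 6 of 8, with Mdh2 in place of Idh3b, and in 35.9% of all. CCGGAAG was in 1 of 8, that of Idh3b, and in 9.12% of all. The palindromic NRF1 motif was in 0 of 8 windows and 4.78% of all, and the estrogen-related receptor string TNAAGGTCA in 0 of 8 and 1.26% of all. No motif searched overlaps another of a different factor in the windows shown.

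Signals below are multiples of the same array's 75th percentile over all non-control probes, so a value describes 1 probe across arrays and is not compared between probes. All 12 probes were well above background on all 6 arrays. The arrays differed before scaling: the 75th percentile was at an intensity of 6050 to 7126 on the DIO_CR_WR arrays and 4605 to 4991 on the DIO arrays, and 52.9% to 66.7% of spots against 69.1% to 79.7% were well above background. The array number limits the precision. Slide 1 held all 3 DIO_CR_WR arrays and DIO replicate 1, and slide 2 held DIO replicates 2 and 3. The samples carry the label of inguinal fat, and all 7 adipocyte markers (Adipoq, Plin1, Cidec, Lipe, Fabp4, Lep and Pparg) were above background on all 6 arrays. In bulk tissue, fewer cells of a type and less RNA per cell cannot be told apart.

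Transcripts of the cycle enzymes gave lower signals in DIO_CR_WR fat than in DIO fat at this scaling, with percent changes of −32.5% to −18.6% and log2 fold changes of −0.57 to −0.30 for the 11 probes that could be fitted. No probe passed limma's two-sided moderated test after Benjamini-Hochberg adjustment over 38460 probes at 0.05, and 0% of all probes did. The members' adjusted p ran from 0.130 to 0.390, where the smallest of any probe was 0.118. At an unadjusted limma p under 0.05, 7 of the 11 probes, from 6 genes, were lower in DIO_CR_WR and 0 higher, against 21% of all probes lower and 5.29% higher. All 11 log2 fold changes were below 0, as were 65.6% of all probes. The DIO_CR_WR arrays lay wholly below the DIO arrays for 10 of 11 probes, against 25.9% of all probes, and wholly above them for 0 of 11, against 7.21% of all. The members' median log2 fold change was −0.46 and that of all probes −0.19. The 95% intervals of 2 of the 11 probes, those of Cs and Idh3b, lay wholly below that median of all probes. The share of all probes with such an interval was not computed. Both intervals held −0.31, the median of the brightest 10% of tested probes.

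**Figure D1:**
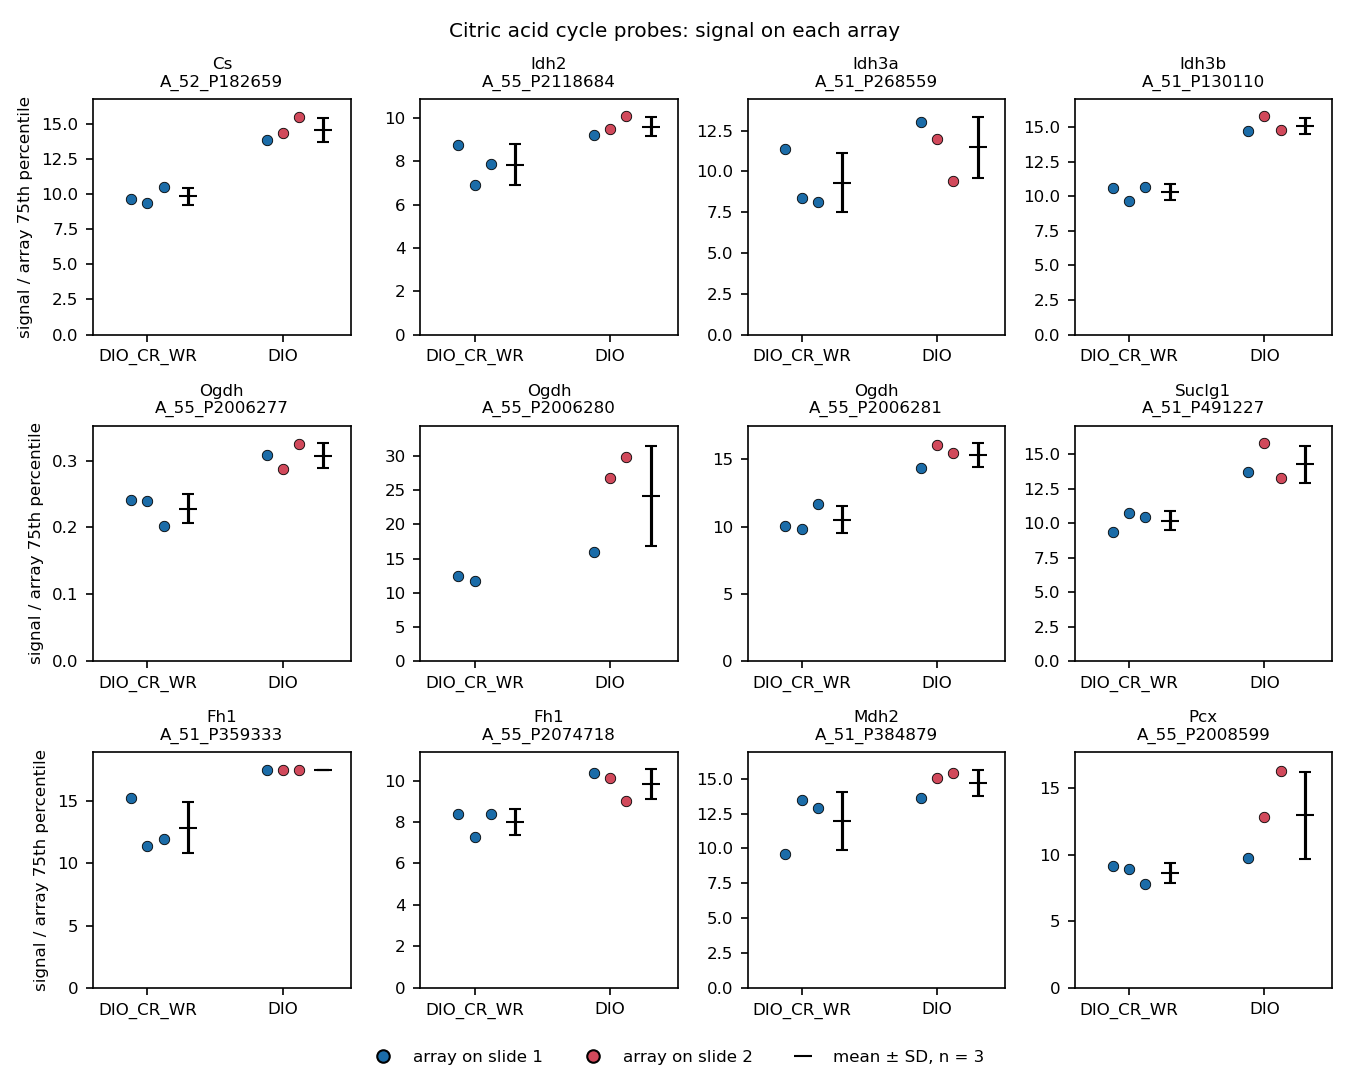
Signal of each of the 12 probes, as a multiple of the array's 75th percentile (vertical axes from 0), on the 3 DIO_CR_WR and 3 DIO arrays, coloured by slide, with mean ± SD where all 3 arrays of a group had a value. DIO_CR_WR points lie below all DIO points for every fitted probe but that of Idh3a, and the middle Ogdh probe has 2 DIO_CR_WR points because its spot on the other array was set aside.

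Citrate synthase, encoded by Cs, joins acetyl-CoA to oxaloacetate in the step that opens the cycle. Its probe (A_52_P182659, chr10:127799428-127799487, plus strand) had signals of 9.63, 9.33 and 10.5 on the DIO_CR_WR arrays and 13.8, 14.3 and 15.5 on the DIO arrays. The highest DIO_CR_WR array was below the lowest DIO array. The log2 fold change was −0.57 ± 0.15 (SE, n = 3 each), with an unadjusted limma p of 0.00757, an adjusted p of 0.130 and a 95% interval of −0.92 to −0.21. On slide 1 alone it was −0.50, and quantile normalization gave −0.21.

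The next oxidation has an NADP-dependent enzyme, Idh2, which also supplies NADPH in the matrix, and an NAD-dependent one, of which Idh3a encodes the catalytic subunit and Idh3b another subunit. Idh3b (A_51_P130110, chr2:130106776-130106835, minus strand) had signals of 10.61, 9.64 and 10.697 in DIO_CR_WR and 14.7, 15.8 and 14.8 in DIO. The groups were apart, and the log2 fold change was −0.55 ± 0.15, with an unadjusted limma p of 0.00780, an adjusted p of 0.130 and a 95% interval of −0.90 to −0.20. Idh3a (A_51_P268559, chr9:54451368-54451427, plus strand) had signals of 11.4, 8.37 and 8.15 in DIO_CR_WR and 13, 12 and 9.40 in DIO. These groups overlapped, since DIO_CR_WR replicate 1 was above DIO replicate 3. The log2 fold change of Idh3a was −0.31 ± 0.21 (adjusted limma p 0.390), with an interval of −0.82 to 0.21. It was 0.02 under quantile normalization, 0.20 under spike-in scaling and 0.41 when labelled age was a covariate.

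Idh2 (A_55_P2118684, chr7:87239736-87239795, minus strand) had signals of 8.77, 6.89 and 7.88 in DIO_CR_WR and 9.22, 9.48 and 10.1 in DIO. The groups did not overlap, but the highest DIO_CR_WR array came close to the lowest DIO array. The log2 fold change of Idh2 was −0.30 ± 0.16 (adjusted limma p 0.281), with an interval of −0.69 to 0.09. It was 0.03 with normexp background correction followed by quantile normalization, called normexp below, and 0.20 under spike-in scaling. Quantile normalization alone left it near 0, at −0.0024.

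Ogdh encodes the decarboxylating component of the 2-oxoglutarate dehydrogenase complex, which makes succinyl-CoA. Its probe A_55_P2006281 (chr11:6256511-6256570, plus strand) had signals of 10.1, 9.84 and 11.7 in DIO_CR_WR and 14.4, 16.1 and 15.5 in DIO. Its probe A_55_P2006277 (chr11:6258910-6258969), farther along the transcript, had signals of 0.241, 0.240 and 0.203 in DIO_CR_WR and 0.309, 0.288 and 0.325 in DIO. Both probes separated the groups. The log2 fold change was −0.54 ± 0.16 (adjusted limma p 0.134) for the first and −0.44 ± 0.16 (adjusted limma p 0.159) for the second. Under spike-in scaling they were at −0.04 and 0.07. After quantile normalization they were at −0.18 and −0.38, and with normexp at −0.29 and −0.45. The second probe had unadjusted limma p of 0.0427 and 0.0197 in those 2 settings. It lay outside the brightest 10% of tested probes. The remaining Ogdh probe, A_55_P2006280 (chr11:6256583-6256642), had signals of 12.5 and 11.7 on DIO_CR_WR replicates 1 and 2 and 15.9, 26.8 and 29.8 in DIO. Its spot on DIO_CR_WR replicate 3 carried an outlier flag, so the probe is not among the 38460 fitted. With that spot missing and the other 5 arrays kept, a setting added after seeing the data, its log2 fold change was −0.95 ± 0.32 (adjusted limma p 0.153). DIO replicate 1, the DIO array on slide 1, was far below DIO replicates 2 and 3 for this probe and nearer to the DIO_CR_WR arrays.

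Suclg1 encodes the alpha subunit of succinyl-CoA ligase, which forms a nucleoside triphosphate in this step. Its probe (A_51_P491227, chr6:73221044-73221103, plus strand) had signals of 9.39, 10.72 and 10.4 in DIO_CR_WR and 13.7, 15.8 and 13.3 in DIO. The groups were apart, with a log2 fold change of −0.48 ± 0.16 (unadjusted limma p 0.0194, adjusted p 0.142) and an interval of −0.86 to −0.11. After normexp background correction with quantile normalization it was 0.13, and under spike-in scaling 0.02.

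Fumarase, from Fh1, adds water to fumarate. Its probe A_51_P359333 had signals of 15.2, 11.4 and 11.9 in DIO_CR_WR and 17.5 on each of the 3 DIO arrays, which agreed to 3 digits. Its probe A_55_P2074718 had signals of 8.37, 7.29 and 8.38 in DIO_CR_WR and 10.4, 10.1 and 9.01 in DIO. Neither probe's groups overlapped. The log2 fold change was −0.46 ± 0.17 for the first (unadjusted limma p 0.0349, adjusted p 0.166) and −0.30 ± 0.16 for the second (adjusted p 0.265), whose interval, −0.67 to 0.08, held 0. The 2 probes were thus on different sides of the unadjusted threshold, and their difference was not tested. Under spike-in scaling they were at 0.05 and 0.21.

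Mdh2, the mitochondrial malate dehydrogenase, regenerates oxaloacetate. Its probe (A_51_P384879, chr5:136266157-136266216, plus strand) had signals of 9.59, 13.5 and 12.9 in DIO_CR_WR and 13.6, 15.1 and 15.4 in DIO. The groups were apart only narrowly, with DIO_CR_WR replicate 1 far below its 2 fellow arrays. The log2 fold change was −0.31 ± 0.19 (adjusted limma p 0.324), with an interval of −0.76 to 0.14. Without DIO_CR_WR replicate 1 the value of Mdh2 was −0.16, and it was 0.05 under quantile normalization and 0.19 under spike-in scaling.

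Pcx encodes pyruvate carboxylase, the enzyme that refills the cycle. Its probe (A_55_P2008599, chr19:4621610-4621669, plus strand) had signals of 9.15, 8.90 and 7.80 in DIO_CR_WR and 9.71, 12.8 and 16.3 in DIO. The DIO arrays were spread widely, and DIO replicate 1 was near the DIO_CR_WR arrays. The log2 fold change was −0.56 ± 0.22 (unadjusted limma p 0.0448, adjusted p 0.183), with the widest interval of the 11 probes, −1.10 to −0.02. On slide 1 alone it was −0.18, so the size of this value rested on DIO replicates 2 and 3.

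**Figure D2:**
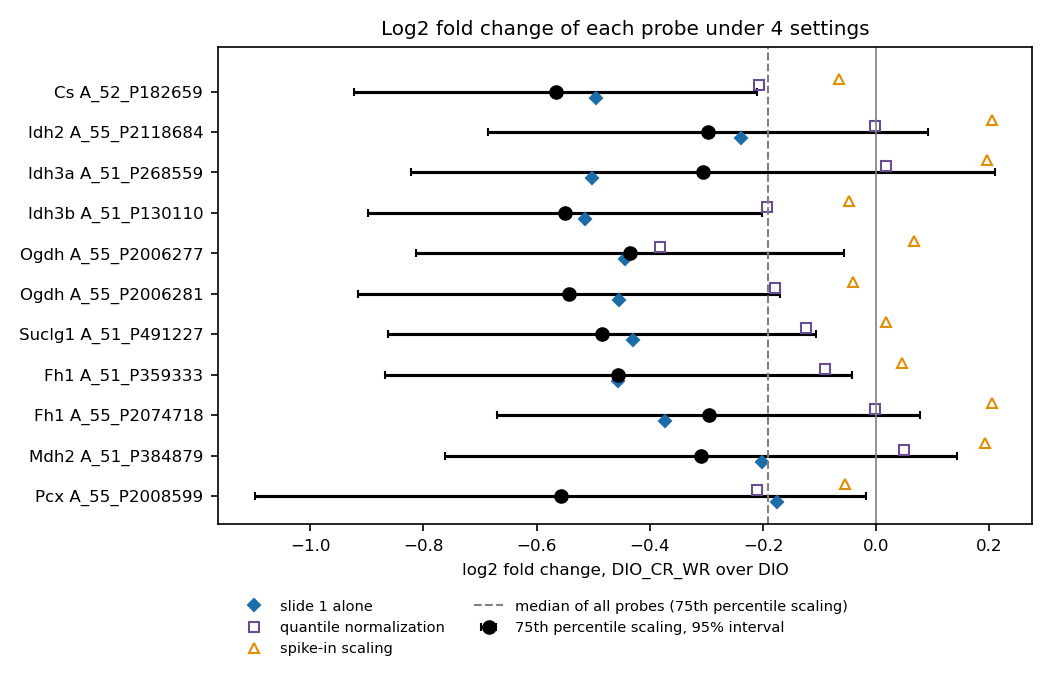
Log2 fold change, DIO_CR_WR over DIO (horizontal axis), of the 11 fitted probes with its 95% interval (circles, 75th percentile scaling), and without intervals on slide 1 alone (diamonds), after quantile normalization (squares) and after spike-in scaling (triangles). The circles lie between −0.57 and −0.30, the dashed line is the median of all probes at −0.19, and the triangles lie close to or above 0.

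The 11 fitted enzyme probes shared the sign of the group difference at this scaling, but not the order of the arrays within a group. Across DIO replicates 1 to 3, Pcx rose (9.71, 12.8 and 16.3) while Idh3a fell (13, 12 and 9.40). DIO_CR_WR replicate 1 was the highest of its group for Idh2 and Idh3a and the lowest for Mdh2 and Suclg1. The medians below describe the set and not each probe. Each probe's log2 signal was set against its mean over the 6 arrays, and the median of these deviations over the 11 probes was −0.19, −0.29 and −0.21 on the DIO_CR_WR arrays and 0.21, 0.23 and 0.23 on the DIO arrays. The group means were −0.23 ± 0.05 in DIO_CR_WR and 0.22 ± 0.01 in DIO (SD, n = 3 each). The same median over all tested probes was −0.12, −0.10 and −0.06 in DIO_CR_WR and −0.01, 0.15 and 0.20 in DIO. At this scaling DIO replicate 1 stood with its group in the enzymes' median, though not for Pcx and Ogdh A_55_P2006280, and near 0 over all probes.

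Slide and group were partly shared, and slide 1 alone allows 3 DIO_CR_WR arrays to be set against 1 DIO array. DIO replicate 1 was above all 3 DIO_CR_WR arrays for 11 of 11 probes, against 39.2% of all probes. On that slide the members' median log2 fold change was −0.44 and that of all probes −0.10; 1 of 11 probes, that of Idh3b (limma p 0.0486), had an unadjusted p under 0.05, against 4.75% of all probes. With slide as a block over all 6 arrays the count was 2 of 11, against 5.71% of all. The lone DIO array is assumed there to vary like the DIO_CR_WR arrays.

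Array scaling changed these values. After scaling to 8 probes for spike-in control RNAs, the members' median log2 fold change was 0.05 and that of all probes 0.31, and 0 of 11 probes had groups apart with DIO_CR_WR lower, against 4.89% of all probes. DIO replicate 1 was then above all 3 DIO_CR_WR arrays for 8 of 11 probes, against 24.9% of all; that count was 6 of 11 after quantile normalization, against 36.3% of all, and 4 of 11 with normexp, against 36.5% of all. After quantile normalization the members' median was −0.12 and that of all probes −0.07, and 3 of 11 probes had groups apart with DIO_CR_WR lower, against 19.8% of all. Relative to the median of all probes, the members' median was −0.26 under 75th percentile, median and spike-in scaling alike, which shift every probe of an array equally, and −0.05 after quantile normalization. Per array, the members' median deviation after quantile normalization was −0.03, −0.11 and −0.10 in DIO_CR_WR and 0.17, 0.05 and −0.03 in DIO, which overlapped. After spike-in scaling it was 0.07, −0.01 and 0.00 in DIO_CR_WR and 0.31, −0.27 and −0.12 in DIO, where the DIO arrays lay on both sides of the DIO_CR_WR arrays.

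The count of enzyme probes lower in DIO_CR_WR at an unadjusted limma p under 0.05, 7 of 11 above, followed the setting as well. It was 3 of 11 with median centring (14.7% of all probes), 1 with quantile normalization (13.6%), 1 with normexp background correction and quantile normalization (15.1%) and 0 with spike-in scaling (2.94%). It was 4 of 11 with no filter on dim probes (11.6% of all), 4 with replicate number as a block (18.3%) and 2 with labelled age as a covariate (19.2%). It was 8 of 11 with a trended robust variance (20.8%) and 7 among probes above background on all 6 arrays (19.6%). With quantile normalization, normexp, spike-in scaling and the age covariate, the enzymes' share was below that of all probes.

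**Figure D3:**
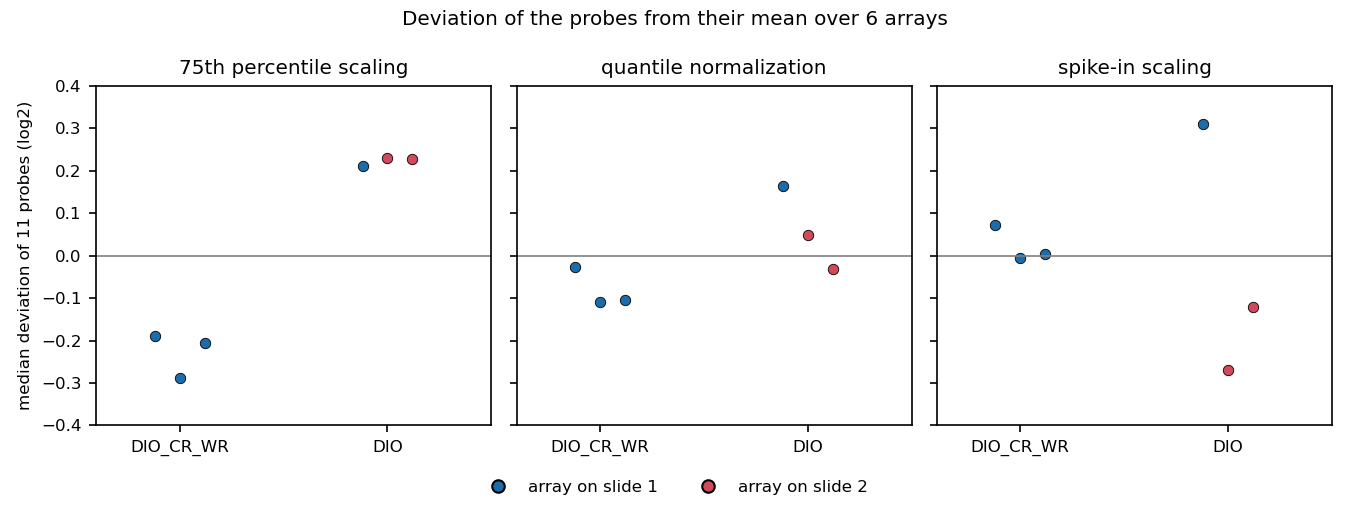
Median deviation of the 11 probes from their own means over 6 arrays (log2, vertical axis) on each DIO_CR_WR and DIO array under 3 scalings, coloured by slide. The groups are apart in the left panel (−0.29 to −0.19 in DIO_CR_WR, 0.21 to 0.23 in DIO) and overlap in the other panels.

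The enzymes' probes were also among the bright ones. Of the 11 fitted probes 10 lay in the brightest 10% of tested probes (3846 probes), whose median log2 fold change was −0.31. In that class 87.2% of probes were below 0, 44.5% had groups apart with DIO_CR_WR lower, and 30.03% were lower at an unadjusted p under 0.05. After quantile normalization the median of the class was −0.005, and on slide 1 alone −0.21. What part brightness has in the enzymes' values was not tested.

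Around the 9 genes, the other 10 genes of the cycle had 13 fitted probes with log2 fold changes of −0.68 to 0.82 and a median of −0.14. None passed the adjusted limma test (0% of all probes). At an unadjusted p under 0.05, 4 of the 13 were lower and 1 higher in DIO_CR_WR, against 21% of all probes lower and 5.29% higher. Sdhb, the iron-sulfur subunit of succinate dehydrogenase, had signals of 9.52, 9.58 and 9.33 in DIO_CR_WR and 12.8, 15.7 and 14.95 in DIO, and a log2 fold change of −0.61 ± 0.16 (adjusted limma p 0.130). Sucla2, a beta subunit partner of Suclg1, had −0.44 ± 0.16 (adjusted p 0.154). The 1 higher probe was for Sdhc, a membrane anchor of succinate dehydrogenase, named here after its value was seen. It had a log2 fold change of 0.82 ± 0.20 (adjusted limma p 0.127), and another Sdhc probe had −0.32 ± 0.17 (adjusted p 0.266), so the pair disagreed in sign.

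Subunits that work in 1 complex with the members did not all carry the members' values. These partners too were picked after their values were seen. Idh3g, the remaining subunit of the NAD-dependent isocitrate dehydrogenase, had a log2 fold change of 0.04 ± 0.25, beside −0.55 for Idh3b and −0.31 for Idh3a. Suclg2, the other beta subunit partner of Suclg1, had 0.06 ± 0.21, beside −0.48 for Suclg1. Dlst, the transferase of the 2-oxoglutarate complex, had −0.30 ± 0.15, beside −0.54 and −0.44 for Ogdh. Differences between subunits were not tested.

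Pyruvate reaches the cycle through its carrier and the pyruvate dehydrogenase complex, which kinases switch off and phosphatases switch on. Of 19 fitted probes of 12 such genes, 0 passed the adjusted limma test, and the median log2 fold change was −0.34. At an unadjusted p under 0.05, 5 of the 19 were lower and 1 higher in DIO_CR_WR, which is near the 21% lower and 5.29% higher among all probes. Dlat, the transferase of the complex, had signals of 1.95, 2.10 and 1.56 in DIO_CR_WR and 3.16, 3.26 and 3.15 in DIO. The groups were well apart, with a log2 fold change of −0.78 ± 0.17 (adjusted limma p 0.124). Pdhx, which ties another component into the complex, had −0.55 ± 0.16 (adjusted p 0.134). Pdk2, a kinase that inhibits the complex, had −0.79 ± 0.26 (adjusted limma p 0.144). The 1 higher probe was for Pdk3, another such kinase, named after its value was seen, at 0.71 ± 0.30 (adjusted p 0.190).

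Among 16 genes for exit from the cycle, its refilling, shuttles and cytosolic counterparts, 23 probes were fitted. None passed the adjusted limma test, and the median log2 fold change was −0.29. At an unadjusted p under 0.05, 4 of the 23 were lower in DIO_CR_WR, a share below the 21% of all probes, and 2 were higher, against 5.29% of all. Me2, a mitochondrial malic enzyme that makes pyruvate from malate, went the other way from the members. It had signals of 1.20, 1.28 and 1.19 in DIO_CR_WR and 0.796, 0.806 and 0.831 in DIO. The groups were apart with little spread in either, and the log2 fold change was 0.60 ± 0.14 (adjusted limma p 0.126). The other higher probe was for Acly, which splits citrate in the cytosol, at 0.48 ± 0.19 (adjusted p 0.178), named after its value was seen; another Acly probe had −0.71 ± 0.32 (adjusted p 0.219). Slc25a11, the 2-oxoglutarate carrier, had −0.60 ± 0.15 (adjusted p 0.130), and Aco1, the cytosolic aconitase that also binds iron-response elements in RNA, had −0.69 ± 0.20 (adjusted p 0.136). Without DIO replicate 1, 4 of the 55 neighbouring probes passed the adjusted limma test, among them Sdhb (−0.70, adjusted p 0.0386) and Aco1 (−0.83, adjusted p 0.0483), and 0 of the 11 enzyme probes did, against 13.9% of all probes.

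**Figure D4:**
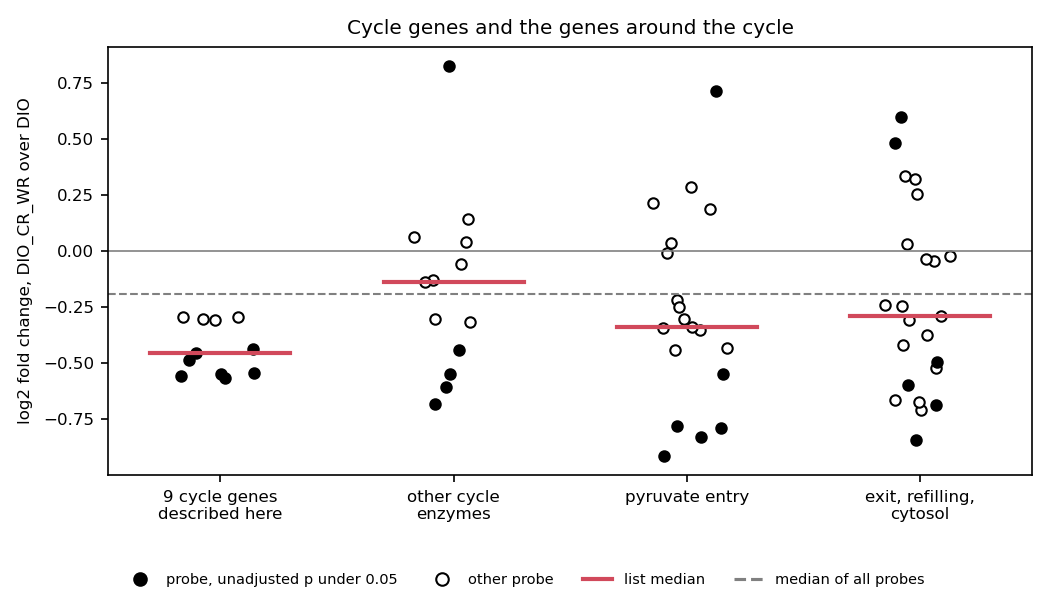
Log2 fold change, DIO_CR_WR over DIO (vertical axis), of each fitted probe of the 9 genes and of 3 lists of neighbouring genes, with filled points for an unadjusted limma p under 0.05. Red bars are list medians (−0.46, −0.14, −0.34 and −0.29), and the dashed line is the median of all probes at −0.19.

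Muscle and brown fat are rich in mitochondria, and their markers were read beside the enzymes. The summed signal of 10 skeletal muscle markers was 182, 133 and 159 in DIO_CR_WR and 231, 248 and 254 in DIO. Each marker, here and below, was read at the brightest probe of its gene. The groups did not overlap, and all 10 markers were above background on all 6 arrays. Marker by marker, the groups were apart for Ckm, Myh2, Myh4, Myl1 and Atp2a1. They overlapped for Acta1, Mb, Myh1, Tnnt3 and Tnnc2. At an unadjusted limma p under 0.05, 5 of the 10 were lower and 0 higher. Among all probes 21% were lower, and in the brightest 10% of tested probes 30.03%. Dimmer probes, not counted, had log2 fold changes of 0.15 ± 0.39 for Myl1 and −0.33 ± 0.30 for Tnnt3. The summed signal of 6 brown or beige adipocyte markers was 26.1, 24.2 and 21.2 in DIO_CR_WR and 38.7, 44.6 and 27.0 in DIO, also without overlap. Of the 6, Cox7a1 and Ppara, 2 markers, were lower at that threshold, beside the same 21%. Taken singly, the groups were apart for Cidea and Ppara and overlapped for Ucp1, Cox7a1, Elovl3 and Dio2. Ucp1 had signals of 8.27, 8.21 and 2.51 in DIO_CR_WR and 11.0, 12.7 and 2.84 in DIO. Cox7a1 had 7.34, 7.37 and 12.9 in DIO_CR_WR and 15.5, 18.9 and 12.4 in DIO. Single probes had groups apart with DIO_CR_WR lower in 25.9% of cases, as given above. The 7 adipocyte markers summed to 162, 116 and 127 in DIO_CR_WR and 129, 141 and 154 in DIO, which overlapped, with 1 of 7 lower and 0 higher at that threshold. The part that muscle or brown fat RNA has in the enzymes' values was not tested.

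**Figure D5:**
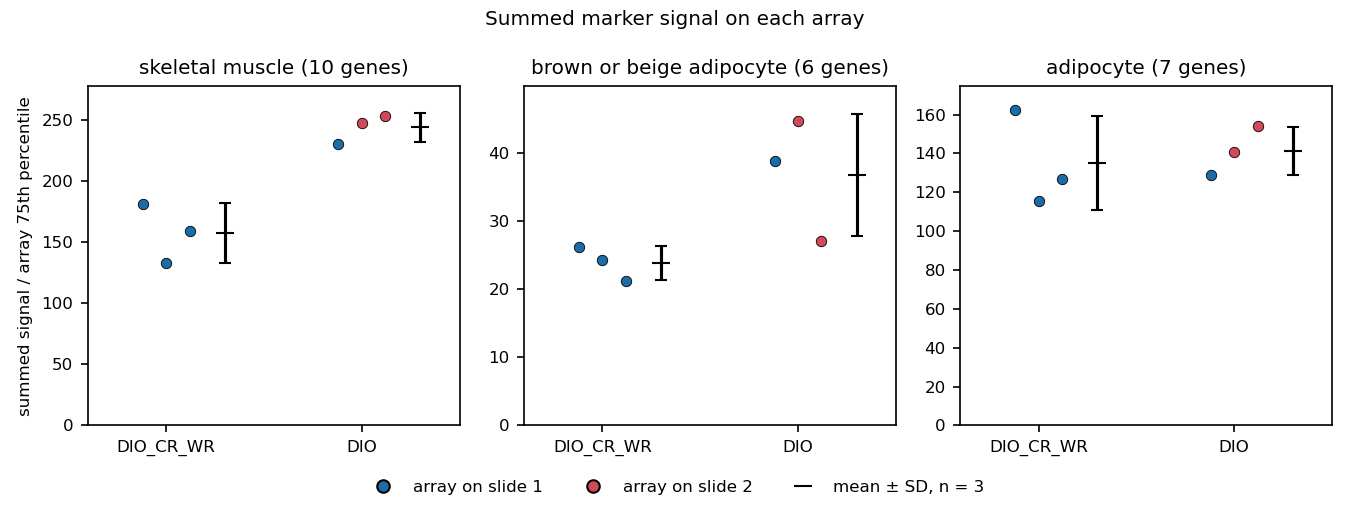
Summed signal of the markers of 3 cell types, in multiples of the array's 75th percentile (vertical axes from 0), on each DIO_CR_WR and DIO array, coloured by slide, with mean ± SD (n = 3). The muscle sums are 133 to 182 in DIO_CR_WR and 231 to 254 in DIO, and the adipocyte sums overlap.

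The other 5 marker lists were summed in the same way. The summed signals were 43.6 to 46.8 in DIO_CR_WR and 33.0 to 55.0 in DIO for 6 macrophage markers, and 12.2 to 12.9 in DIO_CR_WR and 11.7 to 18.1 in DIO for 3 fibroblast and progenitor markers. For 3 endothelial markers they were 9.49 to 10.1 in DIO_CR_WR and 7.74 to 9.94 in DIO. For 6 lymphocyte markers they were 0.492 to 1.11 in DIO_CR_WR and 0.201 to 0.578 in DIO, and for 2 keratinocyte markers 0.141 to 0.161 in DIO_CR_WR and 0.156 to 0.286 in DIO. The groups overlapped for all 5 of these lists. The median log2 fold change was −0.79 for the keratinocyte list and −0.35 for the fibroblast and progenitor list. It was 0.24 for the macrophage, 1.15 for the lymphocyte and 0.40 for the endothelial list. The same median was −0.74 for muscle and −0.73 for brown or beige adipocyte markers. At an unadjusted limma p under 0.05, none of these markers was lower in DIO_CR_WR, and 2 lymphocyte, 2 endothelial, 1 macrophage and 1 fibroblast and progenitor marker were higher. The macrophage marker Cd68 had −0.22 ± 0.32 at the probe counted. A dimmer Cd68 probe, not counted, had 0.78 ± 0.22 (unadjusted limma p 0.00981).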

How the data were processed

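Cy3-labelled cRNA from inguinal fat of 6 samples was hybridised to 1-colour arrays, 1 per sample, from 0.5 µg of RNA per the labels. The values deposited by the authors are the intensity of each spot. Agilent Feature Extraction had removed local background and spatial trends from it, replaced signals near background by a surrogate, and left arrays unnormalized against each other, per the file headers. Its version is 10.7.1.1 per the submitters' processing notes and 10.7.3.1 per the file headers. Unprocessed mean intensity, local background and flags for background, saturation and outliers are also deposited. A table of the whole series, with 18 per-sample columns whose names do not match the sample titles, was not used here.

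Computation used R 4.3.3, version 1.17.8 of data.table, and limma 3.58.1. The 3671 control spots per array were dropped, outlier-flagged spots were treated as missing, spots of 1 probe were averaged, and log2 processed intensity was reduced by each array's 75th percentile. No spot was saturated (0 on each array). Probes well above background on at least 3 of 6 arrays numbered 38794; 334 were left out for an outlier flag, which left 38460. Group differences were tested with limma (lmFit and eBayes, two-sided), and p-values were adjusted by Benjamini-Hochberg over all fitted probes, threshold 0.05; the code was tested on simulated data. The number of arrays limits precision. Probe positions are those of the array files, on mm9, with no exon or UTR annotation used here.

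The 9 genes, the lists around them and the markers were chosen with earlier results of these data known. The genes named are the 9 members and, from each neighbouring list, the 3 with the smallest unadjusted p at their brightest probe; other names are marked as chosen later, and 1 gene that the rule picked is not reported here. Of 10 spike-in probes, the 8 well above background on all arrays were used for spike-in scaling. To check whether replicate numbers pair the samples, deviations from group means were correlated over probes, which gave 0.00, −0.13 and −0.21 for same-numbered arrays and −0.08 to 0.22 for others, so they were not treated as pairs. Alternatives were other scalings, normexp (offset 50), other filters, 1 value per gene, a trended robust variance, replicate, slide or age terms, slide 1 alone, an adjusted p under 0.1, each array left out, and, added later, probes with a missing array kept.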

Additional observations from a re-analysis of the deposited data

How the results depend on the processing

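The median log2 fold change of the 11 enzyme probes was −0.46. It was −0.34 with median centring, −0.12 with quantile normalization, −0.13 with normexp and quantile normalization, 0.046 with spike-in scaling and −0.56 with age as a covariate. The count of probes lower at an unadjusted p under 0.05, 7 of 11, became 3 with median centring, 1 with quantile normalization, 1 with normexp and 0 with spike-in scaling. It was 4 without a filter on dim probes, 2 with slide as a block and 2 with the age covariate. It was 8 with a trended robust variance and stayed 7 among probes above background on all 6 arrays. With 1 value per gene, the brightest probe or the mean, it was 6 of 9 genes, against 21.8% and 21.2% of all. Leaving out each array gave 3 probes (without DIO replicate 2, 8.91% of all) to 6 probes (without DIO replicate 1, 27.3% of all). The medians with arrays left out were −0.48 to −0.41. For the neighbouring genes the median of −0.30 became −0.18 with median centring, −0.058 with quantile normalization, 4.01e-06 with normexp, 0.20 with spike-in scaling and −0.15 with age, and −0.31 to −0.27 with arrays left out.

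Over all probes the adjusted limma test called 0 at 0.05 and at 0.1, but 6 with spike-in scaling, 48 among probes above background on all 6 arrays, and 0 to 5360 with 1 array left out. The 5360, 13.9% of all, came without DIO replicate 1, where 4 of 55 neighbouring probes passed. No enzyme probe passed in any setting run, at 0.05. With spike-in scaling 8063 lower and 2036 higher probes at an unadjusted p became 1131 lower and 7985 higher.

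Signs turned for Idh2 (0.031 normexp, 0.20 spike-in), Idh3a (0.018 quantile, 0.20 spike-in, 0.41 age), Ogdh A_55_P2006277 (0.066 spike-in), Suclg1 (0.13 normexp, 0.017 spike-in), Fh1 (0.046 and 0.21 spike-in), Mdh2 (0.049 quantile, 0.19 spike-in) and Sucla2 (0.058 spike-in). The cause was not tested. The numbers do not pair the samples; with a replicate block the enzyme count was 4 of 11, the median stayed −0.46 and 0 probes passed over all probes.

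The main limits are 3 arrays per group and the slide that holds only 1 DIO array beside the DIO_CR_WR arrays. Further limits are the difference in unscaled brightness between groups and labelled ages that do not overlap between groups.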
